A study of Macaca mulatta with 4 samples.

Results

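Chaperone and unfolded protein response genes were examined in RF/6A, a rhesus macaque (Macaca mulatta) line described by its labels as chorioretinal cells. A row of the deposited table was taken as a member when its rhesus symbol named a heat shock protein of the HSPA, HSPB, HSPD, HSPE, HSPH or HSP90 families, a J protein (DNAJA, DNAJB or DNAJC) or a protein disulfide isomerase (PDIA1 to PDIA6), or was 1 of 16 further genes of endoplasmic reticulum (ER) folding and of the unfolded protein response. The rule found 75 rows, with 73 symbols, among the 21314 rows of the table. HSPE1 had 3 rows. Of the 16 further genes, ATF4 and MANF matched no row and were not analysed here, and 9 more symbols of the name table that fit the rule, among them HSP90AA1, HSPB1 and DNAJB9, were likewise without a row.

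All 4 libraries came from the same untreated line, bought from a cell bank and grown in serum-containing medium, and are titled as static. They form 1 group, so no comparison between groups of samples could be made. Nothing in the labels says that they came from separate cultures, and their spread may therefore be technical. A single line of 1 origin limits what these levels say of any tissue.

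Chaperones are proteins that bind unfolded chains and help them reach their final shape. HSP70 proteins do so in cycles of ATP use that J proteins start, and HSP90, HSP60 and the small heat shock proteins act on other folding states. In the ER, where collagen and other secreted proteins fold, the HSP70 protein BiP, the HSP90 protein GRP94, the lectins calnexin and calreticulin, and the disulfide isomerases share this work. When unfolded chains accumulate there, the sensors IRE1, PERK and ATF6 start the unfolded protein response, which raises chaperone genes through XBP1 and ATF6 and, through ATF4 and CHOP, genes of amino acid supply and cell death.

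Total estimated counts ranged from 20366946 to 20550610 per library. Levels are given in CPM, the count of a gene scaled to the size of its library, after correction for composition by the trimmed mean of M-values (TMM). They are not divided by transcript length, so a level shows how many counts a gene took and not how it ranks in molecules. Library 2 stood apart in composition. Ribosomal protein genes took 16.1% of its counts and 6.47% to 7.11% of the counts of the others, and rows without a symbol took 21.7% against 13.1% to 13.9%. Of the markers used to check the label, 8 of 8 fibroblast and mesenchymal genes reached 1 CPM in every library, as did 2 of 9 endothelial, 2 of 4 retinal pigment epithelium and 1 of 5 blood cell genes, and ROBO4, TYR and CD3E had no count. The fibroblast list took 3.65% of counts in library 2 and 4.42% to 4.56% in the others, and the endothelial list 0.00134% to 0.00193% in any library. The lower fibroblast share rests on FN1, with 52336 counts in library 2 and 279044 to 327690 in the others. In CPM, library 2 was the highest in 3 of the 8 fibroblast genes and the lowest in 5. Over the 12453 rows with a mean of 1 CPM or more it was so in 5451 and 5974. In bulk RNA, fewer cells of a type and less RNA per cell cannot be told apart.

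Most members were expressed. At least 1 CPM in every library was reached by 67 of the 75 rows (89.3%), beside a background of 64.2% over the 14654 rows with a symbol and 52.9% over all rows. The median member measured 5.37 ± 0.16 log2(CPM + 0.5) (SD, n = 4), against 3.84 ± 0.23 for all rows with a symbol and a count. It was 5.13 in library 2 and 5.43 to 5.48 in the others. This median does not show that members were lower there gene by gene. Over the 68 member rows with a mean of 1 CPM or more, the median difference of library 2 from the 4-library median was 0.23 log2 units. With plain CPM, which leaves out the TMM correction, it was -0.11. Together the members took 1.61%, 1.55%, 1.67% and 1.68% of the counts of libraries 1 to 4. HSPA8, PDIA3, HSPA5, P4HB, CALR, HSPD1, HSPA9 and HSP90B1 held 67.1% ± 1.53 of these member counts (SD, n = 4), so 8 of the 75 rows carried most of the total.

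The ER chaperones were 8 rows, all expressed, and they divided in library 2. HSPA5 (ENSMMUG00000005217), which encodes BiP, the ER HSP70 and a binder of nascent chains, measured 1271, 2076, 1339 and 1376 CPM in libraries 1 to 4. CALR (ENSMMUG00000004392), which encodes the soluble lectin calreticulin, measured 946, 1853, 952 and 1035 CPM in the same order. CANX (ENSMMUG00000012370), which encodes calnexin, its membrane-bound relative, measured 981, 296, 1006 and 924 CPM. Libraries 1, 3 and 4 lay close together for each of these genes, and library 2 was the highest for HSPA5 and CALR and the lowest for CANX, outside the range of the others in all 3 cases. Its log2 departures from the 4-library median were 0.61, 0.90 and -1.69 for HSPA5, CALR and CANX with TMM. With plain CPM they were 0.17, 0.45 and -2.13, so the size of these gaps depended on the scaling.

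HSP90B1, which encodes GRP94, a chaperone of integrins and other membrane proteins, measured 799, 1122, 867 and 870 CPM in libraries 1 to 4. Its higher value in library 2 depended on the scaling, since its log2 departure from the 4-library median was 0.37 with TMM and -0.036 with plain CPM, which leaves out the TMM correction. HYOU1, an ER protein that exchanges the nucleotide of BiP, measured 126, 48.8, 137 and 131 CPM. HSPA13, a divergent HSP70 of microsomes, measured 58.1, 3.89, 59.0 and 50.5 CPM, and in library 2 it rested on 63 counts against 1117 to 1313 elsewhere. Both were lowest in library 2, with departures of -1.38 and -3.64 log2 units.

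The small ER proteins SDF2L1 and CRELD2 are classic targets of the response. SDF2L1, which works with J proteins of the ER, measured 5.78, 15.8, 4.99 and 5.97 CPM, and CRELD2, an ER protein with isomerase activity, measured 15.5, 31.2, 14.2 and 15.1 CPM. Each was highest in library 2, outside the range of the others. Without library 2, the 8 ER chaperones had a median coefficient of variation of 4.53% over 3 libraries, against 39.9% over all 4.

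Among protein disulfide isomerases, which form and shuffle disulfide bonds, 5 of 6 rows were expressed. PDIA3, the isomerase that works with calnexin and calreticulin, measured 1798, 1846, 1857 and 1933 CPM in libraries 1 to 4. Library 2 lay within the range of the others, although with plain CPM it was the lowest with a departure of -0.43 log2 units. P4HB, which is both an isomerase and the beta subunit of the collagen prolyl 4-hydroxylase, measured 967, 1773, 1001 and 1114 CPM. PDIA5 measured 31.8, 53.0, 29.3 and 32.6 CPM, and both it and P4HB were highest in library 2. The departures of PDIA5 and P4HB there were 0.71 and 0.75 log2 units with TMM, and 0.27 and 0.30 with plain CPM.

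PDIA6 and PDIA4, further isomerases of the BiP complex, averaged 412 ± 63.6 and 156 ± 21.2 CPM (SD, n = 4). Their higher values in library 2, 499 and 187 CPM, turned to departures of -0.031 and -0.062 log2 units with plain CPM. PDIA2, an isomerase known from pancreas, had 3 counts in all, 2 of them in library 2, an exact 95% Poisson interval, which covers counting error only, of 0.00749 to 0.106 CPM when the libraries are pooled.

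J proteins of the ER lumen hand clients to BiP. All 4 with a row were expressed. DNAJB11, which delivers nascent chains to BiP, measured 144, 359, 151 and 159 CPM, and DNAJC1, a J protein of the ER membrane, measured 31.4, 63.7, 27.6 and 32.7 CPM. DNAJC10, a J protein that also reduces disulfide bonds before chains leave for degradation, measured 268, 45.5, 299 and 252 CPM. Library 2 was the highest for DNAJB11 and DNAJC1 and the lowest for DNAJC10. DNAJC3, which encodes P58IPK, measured 35.7, 34.5, 40.4 and 35.9 CPM, with a coefficient of variation of 7.08%, and library 2 was the lowest by a small margin.

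**Figure D1:**
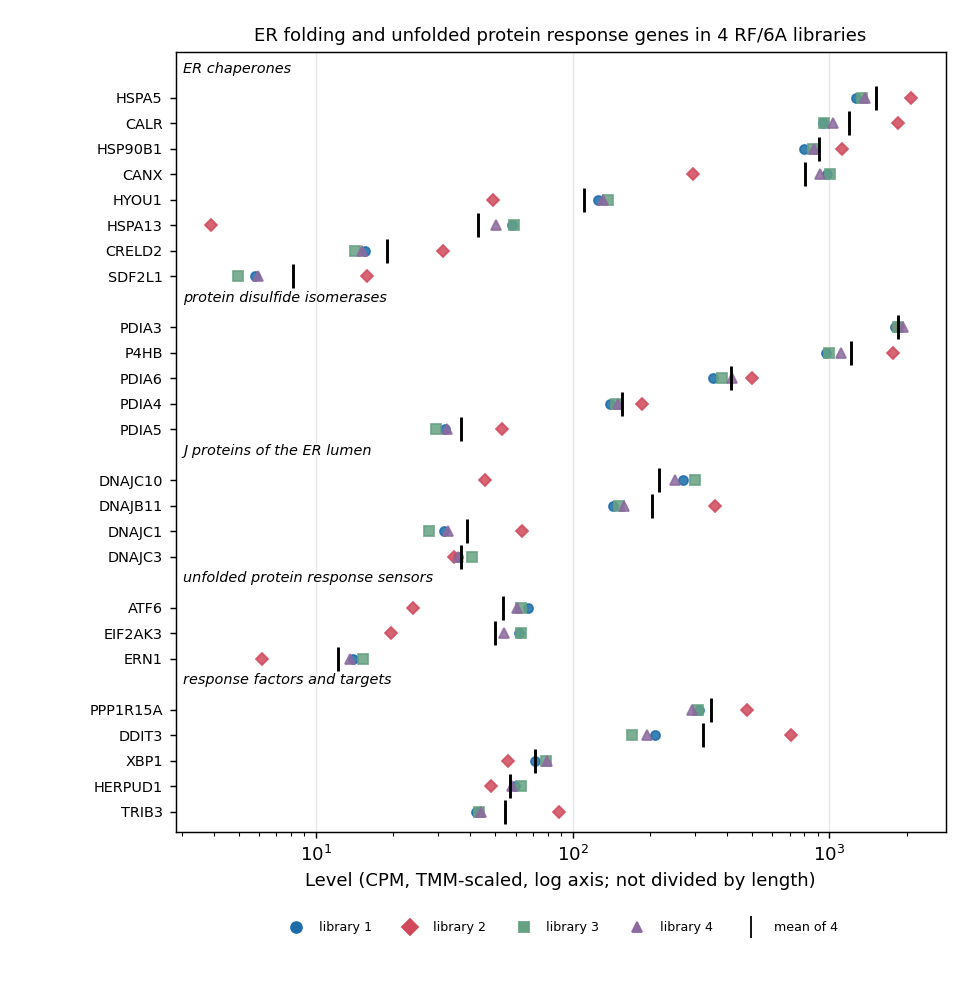
Points give the level of each ER folding or unfolded protein response gene with a mean of 1 CPM or more in each of the 4 RF/6A libraries, in TMM-scaled CPM on a log axis, and black ticks give the mean of 4. Libraries 1, 3 and 4 lie close together, while library 2 lies left of them for CANX, HYOU1, HSPA13, DNAJC10 and the 3 sensors and right of them for CALR, CRELD2, SDF2L1, DNAJB11 and DDIT3, with PDIA3 between 1798 and 1933 CPM in all 4.

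The 3 sensor genes were expressed and all were lowest in library 2. ATF6, whose protein is cut in the Golgi to release a transcription factor, measured 67.2, 23.8, 63.1 and 61.0 CPM in libraries 1 to 4. EIF2AK3, which encodes PERK, the kinase that slows translation, measured 61.9, 19.6, 62.9 and 54.2 CPM, and ERN1, which encodes IRE1, the kinase and nuclease that splices XBP1 mRNA, measured 14.0, 6.17, 15.3 and 13.5 CPM. In CPM + 0.5, each lay more than 2 times below the next library in library 2, a gap, looked for after the data were seen, that 23.5% of all 12453 rows with a mean of 1 CPM or more also showed.

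Genes downstream of the sensors did not follow one direction. DDIT3 (ENSMMUG00000011286), which encodes CHOP, a transcription factor of the PERK branch tied to cell death, measured 209, 711, 170.0 and 195 CPM, or 192 ± 19.98 CPM without library 2 (SD, n = 3). TRIB3, a pseudokinase that CHOP and ATF4 induce, measured 42.1, 88.5, 43.1 and 44.1 CPM, and PPP1R15A, which encodes GADD34, the phosphatase subunit that restores translation, measured 311, 477, 308 and 293 CPM. All 3 were highest in library 2 and stayed so with plain CPM. The departures of DDIT3 and TRIB3 there were 1.81 and 1.01 log2 units with TMM, and 1.37 and 0.57 with plain CPM. That of PPP1R15A fell from 0.63 to 0.18.

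XBP1, the transcription factor of the IRE1 branch, measured 71.3, 56.1, 78.8 and 79.3 CPM, and HERPUD1, an ER membrane protein that organises degradation, measured 59.6, 48.2, 62.8 and 58.1 CPM. Both were lowest in library 2, with departures of -0.42 and -0.29 log2 units. Counts per gene hold neither the spliced share of XBP1 nor the phosphorylation or cleavage that activates the sensors, so these levels do not measure the activity of a branch.

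Other genes of the same pathways were taken from lists and counted in the same way. Of all rows with a symbol, 64.2% were expressed. Of the targets of ATF4 and of the wider stress response, 9 of 9 matched genes were expressed, and VLDLR and PSAT1 took the most counts, at 505 ± 98.8 and 332 ± 21.5 CPM (SD, n = 4). By Dixon's gap test, which calls a library apart when its gap to the nearest of the others takes most of the range, library 2 was apart in 1 of the 9, ASNS, an amino acid synthesis gene, with 171 CPM in library 2 and 101 to 105 in the others. Over all rows with a mean of 1 CPM or more, library 2 was apart as the highest in 21.8% and as the lowest in 11.2%. CHAC1, which degrades glutathione, measured 23.3, 24.8, 28.6 and 26.5 CPM, and ATF3, a stress transcription factor, measured 6.19, 5.18, 11.8 and 7.46 CPM. Library 2 lay inside the range of the others for CHAC1 and below them for ATF3, whereas DDIT3 was highest there. SLC7A11, the cystine transporter, measured 20.02, 3.15, 18.6 and 11.2 CPM and was lowest in library 2. The gap test did not call it, as libraries 1, 3 and 4 were themselves spread from 11.2 to 20.02 CPM. On CPM the test also finds low values less readily. ASNS, CHAC1, ATF3 and SLC7A11 were chosen after their values were seen.

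All 9 matched collagen folding genes were expressed, and library 2 was apart as the highest in 4 and as the lowest in 1. Over all rows with a mean of 1 CPM or more, the shares were 21.8% and 11.2%. PPIB, the prolyl isomerase cyclophilin B, measured 622, 2089, 609 and 684 CPM, and SERPINH1, which encodes HSP47, the chaperone of procollagen, measured 673, 1487, 695 and 769 CPM. Both were highest in library 2. Collagen chain genes took 3.66%, 2.99%, 3.65% and 3.79% of the counts of libraries 1 to 4, and the 18 rows of ER chaperones, isomerases and lumenal J proteins took 0.860%, 0.818%, 0.902% and 0.918%. Both shares were lowest in library 2. They are shares of all counts without the TMM correction, whose factors were 0.793 for library 2 and 1.08 to 1.09 for the others. Divided by these factors, both would be highest in library 2. For every 100 collagen chain counts there were 23.5, 27.3, 24.7 and 24.2 counts of ER folding genes in libraries 1 to 4. The ratio was highest in library 2, where the collagen share was lower by a larger factor than the ER folding share.

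In ER degradation, 11 of 12 matched genes were expressed, with OS9, a lectin that marks clients, at 783 ± 313 CPM (SD, n = 4) and VCP, the segregase that pulls them out, at 176 ± 17.5 CPM. In entry to the ER, 12 of 12 were expressed, with SSR2, a subunit of the translocon-associated complex, at 283 ± 117 CPM and SEC62, a translocation factor, at 246 ± 6.55 CPM. Library 2 was apart as the highest in 3 of 11 tested degradation genes and in 5 of 12 entry genes, and as the lowest in 0 and 3. The shares over all rows with a mean of 1 CPM or more were 21.8% as the highest and 11.2% as the lowest. The 6 matched genes of oxidative folding were expressed, with ERO1A, the oxidase that recharges isomerases, at 74.6 ± 24.9 CPM and TXNDC11 at 39.3 ± 8.55 CPM. All 7 matched genes of ATF6 processing and its partner factors were expressed, with the Golgi protease gene MBTPS1 at 178 ± 24.1 CPM and CREB3L1, an ER-anchored factor of collagen-secreting cells, at 170 ± 17.0 CPM.

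Cytosolic HSP70 and HSP110 genes had 8 rows, of which 6 were expressed. HSPA8 (ENSMMUG00000004696), the constitutive HSP70, took more counts than any other member, at 1888, 2863, 1901 and 1974 CPM in libraries 1 to 4. Its departure in library 2 was 0.56 log2 units with TMM and 0.12 with plain CPM. HSPA4, a nucleotide exchange factor of the HSP110 family, measured 199.9, 174, 218 and 208 CPM, and HSPH1, the heat-inducible HSP110, 42.6, 29.2, 49.0 and 46.3 CPM. Library 2 was the highest for HSPA8 and the lowest for the HSP110 genes, and HSPA4L, a further HSP110 gene, was also lowest there, at 7.96 CPM against 26.1 to 32.7. The rows that missed 1 CPM were HSPA1L, at 0.629 to 1.11 CPM, and HSPA12B, at 0.136 to 0.370 CPM, both named after their values were seen. HSPA1A, HSPA1B, HSPA2 and HSPA6 matched no row and were not analysed here.

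HSP90AB1, the constitutive cytosolic HSP90, measured 10.1, 19.9, 10.6 and 11.7 CPM. It was highest in library 2. The row (ENSMMUG00000022685) is the only one with this symbol and rests on 221 to 323 counts, HSP90 genes have near-identical copies, and reads shared among them may lie in other rows, so the level is uncertain. Of the 4 small heat shock rows, 2 were expressed. HSPB8, which works with BAG3 in the removal of misfolded proteins, measured 13.1, 20.5, 14.5 and 14.6 CPM, and HSPB6 measured 1.87, 1.23, 3.50 and 1.99 CPM. Library 2 was the highest for HSPB8 and the lowest for HSPB6. The departure of HSPB8 there was 0.48 log2 units with TMM and 0.047 with plain CPM. HSPB7 had 1 count, in library 3, and HSPB3 had none, for which the exact 95% Poisson limit of the pooled libraries is 0.0447 CPM.

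Among regulators and co-chaperones of these families, 13 of 13 matched genes were expressed, with the HSP70 partner ST13 at 398 ± 39.2 CPM and STIP1, which links HSP70 to HSP90, at 295 ± 7.74 CPM (SD, n = 4). All 8 subunits of the cytosolic chaperonin were expressed, led by CCT2 at 416 ± 39.2 CPM and CCT3 at 366 ± 30.9 CPM. Library 2 was apart, as the highest, in 1 of the 8. Of all rows with a mean of 1 CPM or more, 21.8% had library 2 apart as the highest and 11.2% as the lowest.

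Mitochondrial chaperones had 7 rows, of which 6 were expressed. HSPD1 (ENSMMUG00000010489), the HSP60 chaperonin, measured 1245, 866, 1281 and 1235 CPM in libraries 1 to 4. HSPE1, the HSP10 lid of that chaperonin and the next gene in the rhesus RefSeq assembly T2T-MMU8v2.0, measured 190.3, 628, 198 and 209 CPM when its 3 rows were summed, an addition made after the data were seen. The partners thus stood apart in opposite directions in library 2, HSPD1 as the lowest and HSPE1 as the highest. The rows of HSPE1 may be copies or pseudogenes that share reads. Row ENSMMUG00000016547 measured 186 ± 144 CPM (SD, n = 4), or 114 ± 4.94 without library 2 (SD, n = 3). Row ENSMMUG00000038252 measured 120 ± 70.3 CPM, or 85.3 ± 4.34 without library 2, and row ENSMMUG00000040870 had 18 counts, all in library 2.

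HSPA9, the mitochondrial HSP70 mortalin, measured 929, 1142, 972 and 935 CPM, and its departure in library 2 was 0.26 log2 units with TMM and -0.15 with plain CPM. DNAJC19, a J protein of the import motor, measured 25.2, 65.0, 25.4 and 25.2 CPM. DNAJA3, the J protein of mortalin, measured 43.3, 24.1, 53.0 and 46.5 CPM. Library 2 was the highest for DNAJC19 and the lowest for DNAJA3.

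J proteins as a whole had 35 rows, of which 33 were expressed. Outside the ER lumen and mitochondria, DNAJC25 took the most counts, at 271, 441, 269.6 and 288 CPM. Its neighbour GNG10 matched no row, and transcripts that run through both genes are known in human, so reads from that gene cannot be told apart from its own. DNAJC7, which moves clients between HSP70 and HSP90, measured 121, 445, 134 and 140 CPM, or 132 ± 9.81 CPM without library 2 (SD, n = 3). DNAJA1, the main cytosolic partner of HSPA8, measured 184, 196, 200.5 and 190.4 CPM. Library 2 lay within the range of the others, and with plain CPM its departure was -0.38 log2 units. DNAJC8, a spliceosome J protein, was highest in library 2 at 131 CPM against 78.3 to 85.3. For both DNAJC25 and DNAJC8 the departure of library 2 was 0.66 log2 units with TMM and 0.22 with plain CPM. For DNAJC7 it was 1.69 and 1.25.

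The largest departures of a single library were low values in library 2. DNAJC6, which encodes auxilin, the J protein that uncoats clathrin vesicles, measured 12.3, 0.308, 14.7 and 10.7 CPM, and library 2 held 5 counts. DNAJB14, a J protein of the ER membrane, measured 24.8, 1.67, 22.9 and 20.03 CPM, and DNAJC13, an endosomal J protein, measured 162, 27.5, 159 and 133 CPM. HSPA13 and DNAJC10 complete the 5 members with the largest departures, and the 5 values ran from -3.89 to -2.38 log2 units. The 22 J protein rows that are not named by rule had means of 0.356 to 92.7 CPM, with a median of 17.6 CPM. Library 2 was their highest in 11 and their lowest in 8, beside 5451 and 5974 of all 12453 rows with a mean of 1 CPM or more.

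**Figure D2:**
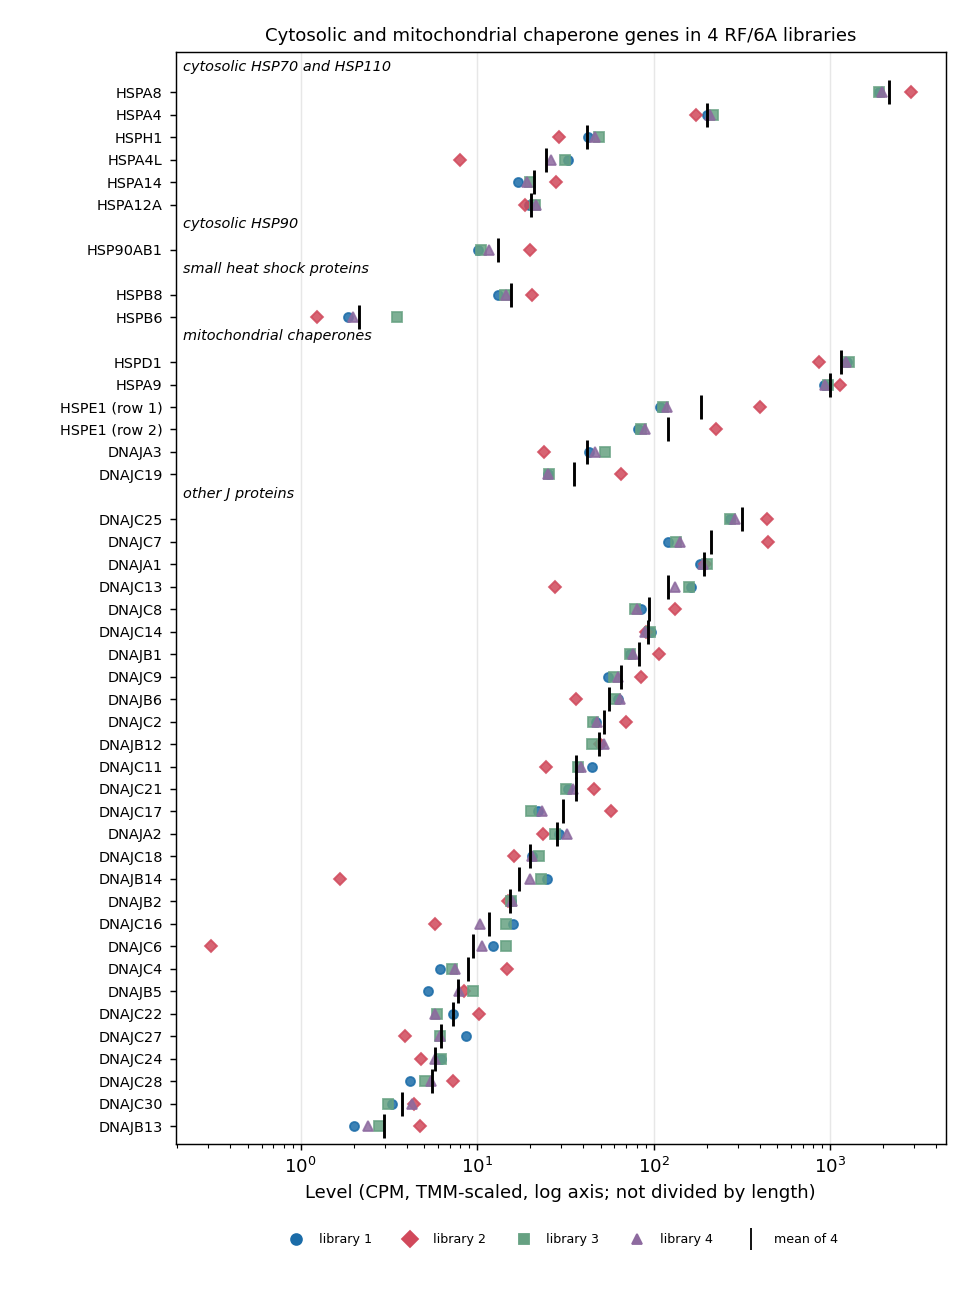
Points give the level of each cytosolic, mitochondrial or other J protein gene with a mean of 1 CPM or more in each of the 4 libraries, in TMM-scaled CPM on a log axis, and black ticks give the mean of 4. HSPA8 lies furthest right at 1888 to 2863 CPM, DNAJA1 is tight at 184 to 200.5 CPM, and DNAJC6 and DNAJB14 show library 2 far to the left at 0.308 and 1.67 CPM.

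Library 2 stood apart in many members, as it did in many rows of the whole table. By the gap test, library 2 was apart as the highest in 22 of 68 member rows with a mean of 1 CPM or more (32.4%) and as the lowest in 6 (8.82%). Over all 12453 such rows the shares were 21.8% and 11.2%. On CPM the test misses most low values, as simulated data showed, so the 22 and the 6 cannot be weighed against each other. Library 1, 3 or 4 was apart in 0 of the 68, and in 0.779% of all rows. On a log2 scale the counts were 18 and 13, beside 14.7% and 21.5% of all rows, and with plain CPM they were 10 and 7, beside 11.4% and 16.7%.

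A rule of size on CPM + 0.5, added after the data were seen, gave the opposite balance. Library 2 lay more than 2 times above the next library in 8 member rows (11.8%, background 15.4%) and more than 2 times below it in 11 (16.2%, background 23.5%). The 8 were DDIT3, DNAJC7, DNAJC19, DNAJC17, SDF2L1, DNAJB11 and 2 rows of HSPE1, of which DNAJC17 was named after its values were seen, and the 11 were the 3 sensors, CANX, HYOU1, HSPA13, HSPA4L, DNAJC10, DNAJC13, DNAJB14 and DNAJC6. Both shares lie below those of all rows. Without the added 0.5, CRELD2 and TRIB3 passed as well, which gave 10 above and 11 below, beside 16.5% and 24.9% of all rows. With plain CPM the counts were 3 above and 15 below, beside 6.52% and 32.6% of all rows. Library 1, 3 or 4 was that far from the next in 0 members and in 0.98% of all rows. The higher share of ribosomal protein counts in library 2 stands beside these values, and its part in them was not tested.

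The median departure of library 2 from the 4-library median was 0.23 log2 units over the members and -0.042 over all rows. With plain CPM these became -0.11 and -0.42, a shift of the whole table, and the members stayed above it by 0.27 with TMM and 0.31 with plain CPM. The other libraries had member medians of -0.027 to 0.017. Library 2 was the highest of the 4 in 35 of 68 members and the lowest in 28, beside 5451 and 5974 of all 12453 rows. With plain CPM it was so in 28 and 34 members. All rows were not counted in that setting, so these counts have no background and say nothing particular of the members. With TMM, the 5 in which library 2 lay between the others were PDIA3, DNAJA1, DNAJB5, DNAJB12 and DNAJC14, the last 3 named after their values were seen.

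**Figure D3:**
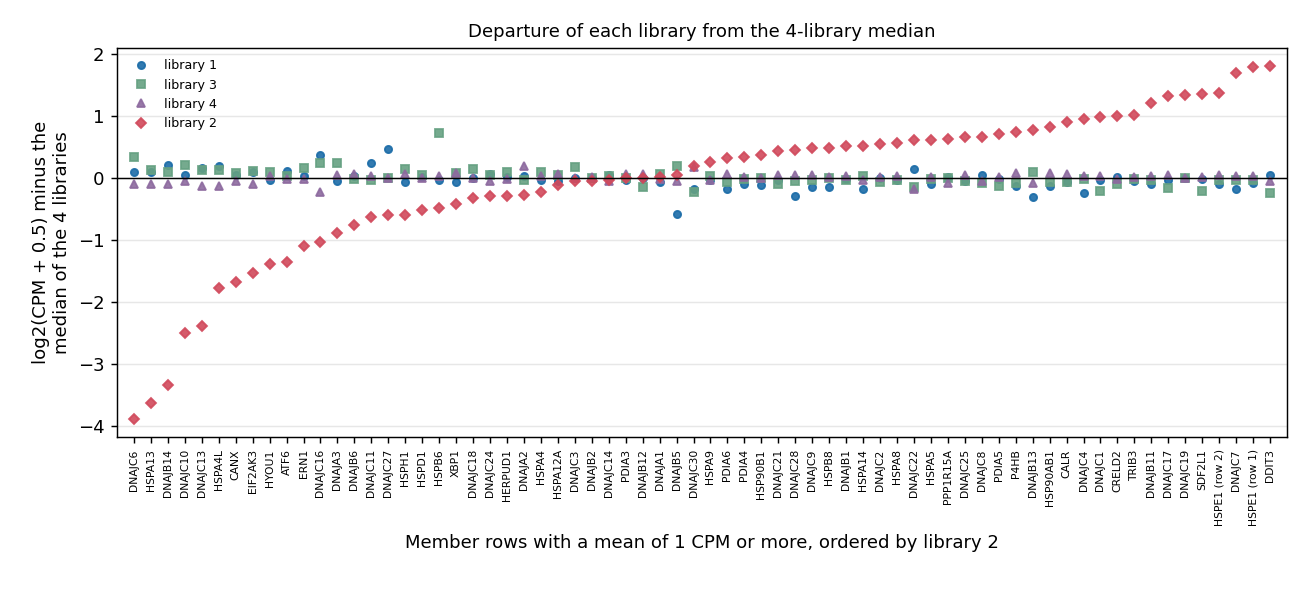
Points give, for the 68 member rows with a mean of 1 CPM or more, log2(CPM + 0.5) in each library minus the median of the 4 libraries, ordered by library 2. Library 2 runs from -3.89 for DNAJC6 to 1.81 for DDIT3, while libraries 1, 3 and 4 run from -0.59 for DNAJB5 in library 1 to 0.72 for HSPB6 in library 3.

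Among libraries 1, 3 and 4 the members were tightly repeated. Their median coefficient of variation was 5.99% without library 2 and 26.5% with it, against 8.85% and 35.0% for all rows with a mean of 1 CPM or more. Without library 2, 52 of 68 members (76.5%) varied by less than 10%, as did 56.1% of all rows. With all 4 libraries the members under that limit were 8 of 68 (11.8%), beside 9.50% of all rows.

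Ratios between partners within a library need neither scaling nor length. HSPD1 to HSPE1 was 6.54, 1.38, 6.48 and 5.91 counts to 1 in libraries 1 to 4, and CALR to CANX was 0.964, 6.27, 0.947 and 1.12. In log2 units the SD over 4 libraries was 1.10 and 1.32 for these pairs, and 0.080 and 0.13 over the 3 without library 2. Both ratios thus repeated closely except in library 2.

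The ratio of BiP to GRP94 varied less than those of these pairs, though library 2 was again outside the others. HSPA5 to HSP90B1 was 1.59, 1.85, 1.55 and 1.58, with a log2 SD of 0.12, or 0.022 without library 2. The genes alone had log2 SDs of 0.33 and 0.21 with TMM, which hold the scaling of library 2. With plain CPM they varied less, at 1488 ± 116 and 907 ± 37.6 CPM (SD, n = 4). The ratio was therefore not shown to be steadier than the genes. HSPA5 to DNAJB11 was 8.83, 5.78, 8.86 and 8.66, and PDIA3 to P4HB was 1.86, 1.04, 1.85 and 1.74. TRIB3 to DDIT3 was 0.201, 0.124, 0.254 and 0.226, so TRIB3 was higher in library 2 by less than DDIT3 was.

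**Figure D4:**
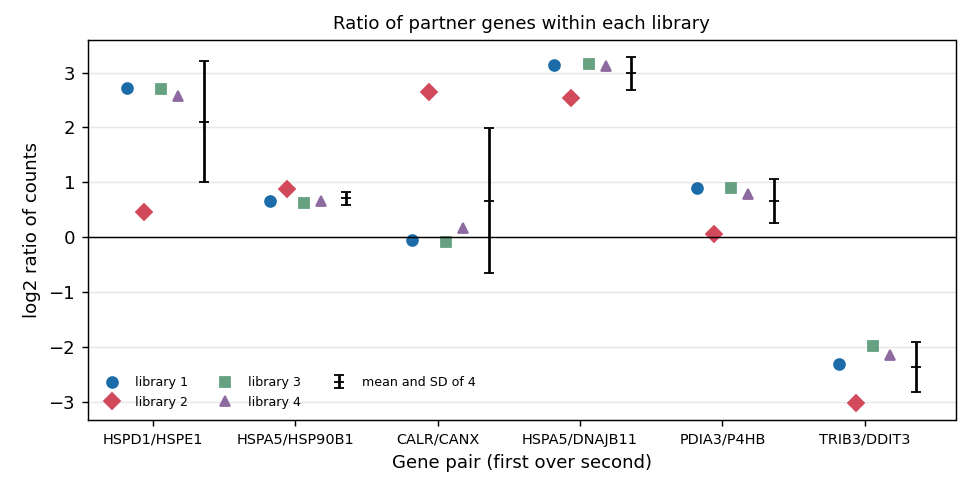
Points give the log2 ratio of the counts of 2 partner genes in each of the 4 libraries for 6 pairs, with the mean and SD of 4 in black. The ratio of HSPD1 to HSPE1 drops to 0.46 and that of CALR to CANX reaches 2.65 in library 2, while HSPA5 to HSP90B1 stays between 0.63 and 0.89.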

How the data were processed

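RNA of 4 RF/6A libraries was sequenced on the BGISEQ-500, per the labels' protocols. The authors deposited estimated counts per Ensembl rhesus gene, as whole numbers. The submitters' processing notes name Salmon and DESeq2 without versions. Which build and annotation served is not given in the sources used here. Such estimation shares reads among similar transcripts, which adds an error that counting intervals do not cover. Symbols came from a table that pairs Ensembl identifiers with names, which named 14654 rows.

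Counts were scaled by TMM in edgeR 4.0.16 (R 4.3.3), with no group test, since there is 1 group. Logs used a pseudocount of 0.5, and the low-count filter of the alternatives was filterByExpr (minimum count 10). A departure is log2(CPM + 0.5) minus the 4-library median. A count of 3, the limit that a count of 0 allows, is 0.135 to 0.185 CPM in a library. The gap test was tested on simulated data, where on CPM it found high values more readily than low ones. It found 97 of 100 genes set to 4 times their level in 1 library, and 20 of 100 set to 0.25 times. The alternatives were plain CPM, DESeq2 1.42.0 size factors, other filters and pseudocounts, a log scale and leaving out each library. The planned levels per coding length and sequence features were not computed, since no lengths or sequences were used here.

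The members and lists were chosen with earlier results of these data known. Named were all members of the ER, sensor, response, cytosolic HSP90 and mitochondrial groups, the 4 highest HSP70 and HSP110, 3 highest small heat shock and 5 highest other J protein genes, members with no count, the 5 largest departures at a mean of 5 CPM or more, and the 2 highest genes of each other list.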

Additional observations from a re-analysis of the deposited data

Results flagged for a closer look

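Dixon's test was run on 60 reported values, and 32 had a single library apart. By chance about 1 in 20 would if all libraries were alike. In this table, however, 4214 of the 12453 rows with a mean of 1 CPM or more had a library apart. The 60 values also include members picked for large departures, ratios of genes tested alone, and rows with counts in a single library. They therefore measure no excess in the members. In 31 of the 32 the library was library 2, as the highest in 22 and as the lowest in 9. These values share a library and are not independent.

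Library 2 was the highest, in CPM, for HSPA5 (2076), CALR (1853), CRELD2 (31.2), SDF2L1 (15.8), PDIA5 (53.0), DNAJB11 (359), DNAJC1 (63.7), PPP1R15A (477), DDIT3 (711), TRIB3 (88.5) and HSP90AB1 (19.9). It was also the highest for the HSPE1 rows (401, 226 and 1.11), DNAJC19 (65.0), HSPA8 (2863), DNAJC25 (441), DNAJC7 (445) and DNAJC8 (131).

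It was the lowest, in CPM, for CANX (296), HYOU1 (48.8), HSPA13 (3.89), ATF6 (23.8) and HSPD1 (866), and for the median over all 75 member rows, at 5.13 log2(CPM + 0.5). The share of ribosomal protein genes was 16.1% of its counts. The log2 ratios of partners in library 2 were 0.46 for HSPD1 to HSPE1, 2.53 for HSPA5 to DNAJB11 and 0.058 for PDIA3 to P4HB, all the lowest, and 0.89 for HSPA5 to HSP90B1 and 2.65 for CALR to CANX, both the highest. The remaining value was HSPB7, at 0.0449 CPM in library 3, which is a single count.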

How the results depend on the processing

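The count of expressed members stayed between 67 and 68 when any library was left out. The member median ran from 5.30 to 5.56 log2(CPM + 0.5) across the same settings, the highest without library 2. In each, TMM was computed again on the libraries left. With the 4-library factors, the median without library 2 was 5.45, so part of the rise was the changed scaling. With all 4 libraries, the member median was 5.63 for members that pass filterByExpr, which drops low members. Its SD over the 4 libraries was then 0.048, against 0.16 for all members. With plain CPM, library 2 was apart as the highest in 10 members and more than 2 times above in 3, and its median departure was -0.11. On the log2 scale it was apart as the lowest in 13. Over counts of rows with a symbol, which is a smaller total, the shares were 1.93% for members, 1.04% for ER folding and 4.16% for collagen chains. DESeq2 size factors moved none of the member counts, medians or departures beyond these limits. The ratio of CALR to CANX ran from 0.010 to 0.92 log2 units over the libraries left out, the lowest without library 2. Among named members, the mean level moved by more than its SD in 7 of 49 without library 2, with TMM computed again. For PDIA3, among the 7, this mean was 2012 CPM. With the 4-library factors, which the levels without library 2 given above keep, it was 1863 CPM, against 1859 over all 4. These moves thus hold the changed scaling as well as the loss of library 2. With plain CPM, the departure of library 2 moved by more than the log2 SD of the gene in 20 of 49. The gap test was not run on 3 libraries. No paired analysis was possible because the labels give 1 group.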
